A study of Mus musculus with 4 samples.

Results

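Chemokines are small secreted proteins that draw leukocytes and other cells along a concentration gradient by binding G protein-coupled receptors. The 10 chemokine genes Cxcl1, Cxcl2, Cxcl3, Cxcl9, Cxcl10, Cxcl12, Ccl2, Ccl5, Ccl11 and Ccl19 were followed among the 25827 genes listed in 4 single-cell RNA libraries of regenerating mouse muscle, and all 10 were found by their symbol. They were chosen by measured values of these same libraries: Cxcl9, Cxcl10, Ccl5, Cxcl2 and Cxcl3 had leaned higher in miR-501KO sums of myogenic cells, and Ccl11 and Ccl19 led the expression of a small progenitor cluster. Values of the members in the genotype comparison of myogenic cells, and in the clusters, are therefore descriptions and carry no test.

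Muscle damage draws neutrophils first and then monocytes, which clear debris and become macrophages that act on muscle stem cells. Cxcl1, Cxcl2 and Cxcl3 attract neutrophils through the receptor Cxcr2. Cxcl9 and Cxcl10 are induced by interferons and attract activated T and natural killer (NK) cells through Cxcr3, while Cxcl12 is made without inflammation by stromal cells and holds cells that carry Cxcr4. Ccl2 recruits monocytes through Ccr2, Ccl5 acts on several leukocytes through receptors such as Ccr1 and Ccr3, Ccl11 (eotaxin) attracts eosinophils through Ccr3, and Ccl19 guides dendritic cells and T cells through Ccr7.

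The libraries came from 12-week-old mice, 6 days after the tibialis anterior muscle had been injured with cardiotoxin, a venom peptide that lyses fibres but spares the stem cells. The control group, Pax7Cre, carried a Cre recombinase driven by the promoter of Pax7, the transcription factor of muscle stem cells. The group miR-501KO (Pax7CremiR-501fl/Y) carried the same Cre and a floxed gene of the microRNA miR-501. Per the study's methods the deletion was aimed at the myogenic lineage. Whether any of the niche cells described here carried it was not tested. Per the study's methods the mice were male, controls were littermates, and the cells had been sorted as alpha7-integrin+ and negative for CD45, CD31 and Sca1. Each group had 2 libraries, replicate 1 from the first run and replicate 2 from the second, and each library pooled 3 mice, so that p-values measure the spread between pools. The microRNA itself was not read by these 3′ libraries, and the deletion could not be checked in them.

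The libraries held between 73665012 and 117527749 UMIs (unique molecular identifiers, 1 per captured RNA molecule). Between 1829 and 3439 cells per library had at least 5000 UMIs and 1000 genes, 10450 in all, with median depths of 25254 to 34579 UMIs, and 10 barcodes of kept cells occurred in more than 1 library. Of 20 clusters, found without the chemokine and receptor genes, those named for a class rested on marker genes and carry the ending "-like", since the classes were rebuilt here and may differ from those of the study. Among 8861 myogenic cells, 2697 were quiescent-like, 2498 cycling-like and 1394 committed-like. The niche classes were macrophage-like (344 cells, 13 of 13 markers raised), mural-like, the pericytes and smooth muscle cells of vessels (263 cells, 10 of 10), Schwann-like, the glia of nerves (195 cells, 9 of 9), and a cluster of fibroblast-like and tenocyte-like cells (107 cells). Macrophage-like cells were thus present in spite of the CD45 gate. Cluster 7 (659 cells) came from miR-501KO replicate 1 alone and was left out of the myogenic sums. It raised 8 of 12 markers of muscle fibres, 7 of 13 of macrophages and 6 of 13 of committed cells together. Myog was detected in 100% of its cells, Cdh15 in 97.9%, Myod1 in 91.5% and Pax7 in 42.5%.

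Levels are given as UMIs of a gene per 1000000 UMIs of the summed cells (CPM). A 3′ library counts each molecule at 1 end, so these values are not divided by transcript length, and a gene with a level of 0 had no UMI. Intervals on counts cover counting error only.

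The promoters of the members were also read, as a description. RefSeq sequence of GRCm38.p6, which is an earlier build than the GRCm39 of the submitters' notes, was at hand for 7 of the 10 members: Cxcl1, Cxcl2, Cxcl3, Cxcl9, Cxcl10, Cxcl12 and Ccl19. The 250 bases before the start of transcription are shown for the 6 in which a motif was found, in the direction of transcription. Capitals mark a match to the kappaB consensus, bound by NF-kappaB factors, in Cxcl1, Cxcl2 and Cxcl3, and to GAAANNGAA, the core of the interferon-stimulated response element, in Cxcl9 and Ccl19. Cxcl10 has both, GAAANNGAA first and then 2 separate kappaB matches.
Cxcl1 (chr5:90890995-90891244, plus strand): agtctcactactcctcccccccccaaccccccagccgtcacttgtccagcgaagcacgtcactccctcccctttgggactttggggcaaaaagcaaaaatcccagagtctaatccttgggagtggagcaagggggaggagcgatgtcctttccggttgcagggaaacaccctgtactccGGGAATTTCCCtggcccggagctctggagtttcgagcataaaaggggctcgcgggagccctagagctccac
Cxcl2 (chr5:90903649-90903898, plus strand): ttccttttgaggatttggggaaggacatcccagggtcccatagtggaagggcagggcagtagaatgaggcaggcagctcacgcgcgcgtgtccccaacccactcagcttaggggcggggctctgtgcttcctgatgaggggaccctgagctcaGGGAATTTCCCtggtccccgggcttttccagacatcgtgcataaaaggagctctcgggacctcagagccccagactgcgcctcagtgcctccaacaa
Cxcl3 (chr5:90785851-90786100, plus strand): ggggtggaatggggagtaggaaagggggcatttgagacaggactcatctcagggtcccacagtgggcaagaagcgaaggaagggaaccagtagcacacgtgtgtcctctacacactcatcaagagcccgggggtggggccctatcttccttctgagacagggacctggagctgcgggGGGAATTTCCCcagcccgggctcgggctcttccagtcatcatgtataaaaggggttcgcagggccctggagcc
Cxcl9 (chr5:92328080-92328329, minus strand): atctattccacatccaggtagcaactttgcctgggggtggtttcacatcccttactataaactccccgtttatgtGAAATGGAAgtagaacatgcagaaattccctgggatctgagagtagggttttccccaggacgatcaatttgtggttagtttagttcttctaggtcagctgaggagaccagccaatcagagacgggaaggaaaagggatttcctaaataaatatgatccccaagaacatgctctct
Cxcl10 (chr5:92348890-92349139, minus strand): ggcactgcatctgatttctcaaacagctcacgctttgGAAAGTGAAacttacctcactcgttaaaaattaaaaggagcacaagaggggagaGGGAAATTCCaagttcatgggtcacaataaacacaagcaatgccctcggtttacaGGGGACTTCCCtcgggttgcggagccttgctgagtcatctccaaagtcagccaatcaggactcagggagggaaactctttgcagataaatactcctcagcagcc
Ccl19 (chr4:42756366-42756615, minus strand): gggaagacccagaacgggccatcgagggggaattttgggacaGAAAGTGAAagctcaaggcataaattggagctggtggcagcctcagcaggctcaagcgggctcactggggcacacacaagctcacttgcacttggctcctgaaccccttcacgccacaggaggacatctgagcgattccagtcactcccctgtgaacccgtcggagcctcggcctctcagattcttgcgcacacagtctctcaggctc

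The run in capitals was the same in Cxcl1, Cxcl2 and Cxcl3, which lie close together on chromosome 5, and its first base stood 71, 97 and 73 bases before the start. The consensus matched there on both strands. In Cxcl10 the kappaB matches began 159 and 104 bases before the start, and the GAAANNGAA match 213 bases before it. In Cxcl9 and Ccl19 GAAANNGAA began 175 and 208 bases before the start. On either strand the kappaB consensus occurred in 7.25% and GAAANNGAA in 7.13% of the same windows of 32851 promoters. A match describes letters and is not a measured binding site.

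The 10 chemokines differed in which cells carried them. Cxcl1 (ENSMUSG00000029380) was, of the 10, the one found in most myogenic cells (51.6%, and 26.7% after thinning). In cluster 17, a myogenic cluster of 81 cells with Ccl19 among its leading genes, it ranged from 1491 to 3445 CPM over the 4 libraries. It reached 896 to 1671 CPM in mural-like cells and 523 to 1223 CPM in fibroblast-like and tenocyte-like cells, and these 2 ranges overlapped. Macrophage-like cells had 209 to 352 CPM and quiescent-like cells 116 to 260 CPM, again with overlap, and committed-like cells only 10.6 to 29.1 CPM. In cells thinned at random to 5000 UMIs each, 32.0% of quiescent-like, 67.7% of mural-like and 6.10% of committed-like cells had a Cxcl1 UMI (58.0%, 79.5% and 21.6% before thinning).

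Among the cells sorted here, which are not the whole muscle, Cxcl2 (ENSMUSG00000058427) was found mostly in macrophage-like cells. Of all its UMIs, 73.2% lay in macrophage-like cells, which were 3.29% of cells. Its level there was 2464 and 4260 CPM in Pax7Cre and 3341 and 2101 CPM in miR-501KO. In the same order, mural-like cells had 147, 542, 139 and 452 CPM, and quiescent-like cells 10.3, 13.8, 23.6 and 20.2 CPM. After thinning, 58.1% of macrophage-like and 1.58% of committed-like cells had a Cxcl2 UMI (65.4% and 8.18% before, at median depths of 18772 and 35110 UMIs). In committed-like cells the Cxcl2 level was 0.0514% to 0.138% of that in macrophage-like cells, and the summed macrophage markers stood at 0.0433% to 0.0913% of theirs. In quiescent-like cells Cxcl2 stood at 0.324% to 0.962% of the macrophage-like level, with markers at 0.0554% to 0.106%. In quiescent-like cells the share of Cxcl2 was above that of the markers in all 4 libraries, while in committed-like cells both were of similar size.

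Cxcl3 (ENSMUSG00000029379) was rare everywhere, with 481 UMIs in all cells. It had 0 UMIs in committed-like and in Schwann-like cells of every library, where a count of 0 allows up to 0.0557 and 0.993 CPM over the 4 libraries. Its highest class level was 114 CPM, in the 22 mural-like cells of Pax7Cre replicate 2. In cluster 17 it had 0 UMIs in both Pax7Cre libraries and 19 and 64 UMIs in miR-501KO replicates 1 and 2, in 4, 11, 14 and 52 cells.

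The interferon-inducible pair shared mural-like cells as a main site, and in Schwann-like cells Cxcl10 stood nearly alone, since Cxcl9 had 1 UMI there. Cxcl10 (ENSMUSG00000034855) ranged from 413 to 1668 CPM in mural-like cells, 132 to 303 CPM in Schwann-like cells, 53.9 to 271 CPM in macrophage-like cells, 75.5 to 112 CPM in cycling-like cells and 52.9 to 165 CPM in quiescent-like cells. The last 4 ranges overlapped in part, whereas committed-like cells lay apart at 2.03 to 6.34 CPM. Cxcl9 (ENSMUSG00000029417) ranged from 51.0 to 274 CPM in mural-like and 35.0 to 208 CPM in fibroblast-like and tenocyte-like cells. In macrophage-like cells Cxcl9 was at 58.6 and 81.1 CPM in replicates 1 of Pax7Cre and miR-501KO and at 0.760 and 1.10 CPM in replicates 2, so that the run and not the genotype separated the libraries.

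Cxcl9 was met more often in cells with Cxcl10 than in cells without it, although most cells with Cxcl10 had no Cxcl9 UMI. Among quiescent-like cells thinned to equal depth, 10.1% of those with a Cxcl10 UMI also had a Cxcl9 UMI, against 1.10% of those without. In mural-like cells these shares were 32.4% and 4.52%. They are counts over cells pooled from the 4 libraries and carry no test.

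Cxcl12 (ENSMUSG00000061353) marked vessel and connective tissue cells. In mural-like cells it was at 171 and 594 CPM in Pax7Cre and 268 and 372 CPM in miR-501KO, and in fibroblast-like and tenocyte-like cells at 293, 530, 293 and 131 CPM in the same order. Cluster 19, 21 cells that raised 8 of 8 endothelial markers, had 376 to 909 CPM. Macrophage-like cells had 0.760 to 3.71 CPM, below the 5.92 to 9.09 CPM of quiescent-like cells. After thinning, 61.6% of mural-like and 0.872% of macrophage-like cells had a Cxcl12 UMI (91.3% and 4.65% before). It was also the member spread most evenly over mural-like cells, where the highest cell of each library held 3.22% to 11.3% of its UMIs.

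Of the CC chemokines, Ccl2 (ENSMUSG00000035385) resembled Cxcl1. It was at 923 to 1797 CPM in mural-like cells, 299 to 577 CPM in macrophage-like cells, 195 to 692 CPM in fibroblast-like and tenocyte-like cells, and 58.6 to 91.8 CPM in quiescent-like cells. Mural-like cells, 2.52% of all cells, held 27.8% of its UMIs. Cycling-like cells (22.2 to 36.8 CPM) and committed-like cells (2.19 to 12.0 CPM) followed without overlap.

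Ccl5 (ENSMUSG00000035042) was found in macrophage-like cells at 222 and 106 CPM in Pax7Cre and 139 and 87.0 CPM in miR-501KO. A part of it, unlike between libraries, lay in cells that also carried lymphocyte RNA. Cells with 3 or more UMIs of T and NK markers held 56.1%, 68.6%, 24.1% and 76.6% of these UMIs, and the summed T and NK markers of the class were at 206, 148, 119 and 82.6 CPM, with 11, 7, 11 and 7 of the 11 markers detected. In replicates 1 of Pax7Cre and miR-501KO the highest Ccl5 cell held 248 of 659 and 169 of 348 UMIs. It had 0 UMIs of T and NK markers and 1513 and 2664 of macrophage markers. In replicates 2 the highest cell held 81 of 140 and 93 of 158 UMIs, with 168 and 92 UMIs of T and NK markers. The part of lymphocyte RNA in the Ccl5 level was not tested. In mural-like cells Ccl5 had 2 UMIs in all. After thinning, 12.8% of macrophage-like and 0.760% of mural-like cells had a Ccl5 UMI (18.9% and 0.760% before).

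Ccl11 (ENSMUSG00000020676) and Ccl19 (ENSMUSG00000071005) had many of their UMIs in quiescent-like cells, which were 25.8% of all cells and held 43.7% and 42.5% of them, although over the 4 libraries together their levels were higher in mural-like cells. Ccl11 was at 15.4, 20.7, 42.8 and 25.0 CPM in quiescent-like cells of Pax7Cre replicates 1 and 2 and miR-501KO replicates 1 and 2. In cycling-like cells it did not pass 1.70 CPM, and in macrophage-like cells it had 3 UMIs in all. Mural-like cells carried more of it, with 193, 507, 224 and 121 CPM. Over the 4 libraries together Ccl19 was at 26.4 CPM in mural-like, 29.5 CPM in fibroblast-like and tenocyte-like and 13.8 CPM in quiescent-like cells. By library Ccl19 was at 8.24, 17.05, 14.9 and 17.2 CPM in quiescent-like cells and fell to 1.99 to 3.47 CPM among cycling-like cells and 0.147 to 0.783 CPM among committed-like cells.

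Cluster 17 held most Ccl19 per cell, with 446 and 316 CPM in Pax7Cre and 161 and 505 CPM in miR-501KO. Its 81 cells raised 10 of 14 markers of quiescent cells and 4 of 11 fibroblast markers and were left unnamed. Pax7 was detected in 3 of 4, 10 of 11, 14 of 14 and 48 of 52 cells, and Pdgfra, a defining gene of muscle fibroblasts, in 0. Dcn, another fibroblast marker, was found in 0, 4, 1 and 19 cells. Ccl19 was found in 4, 9, 10 and 44 of these cells in the same order and Ccl11 in 0, 4, 9 and 6, so that most cells of the cluster in miR-501KO replicate 2 had Ccl19 without Ccl11. The cluster had few cells outside that library, and Ccl19 led it by the choice of the genes, which is no finding.

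**Figure D1:**
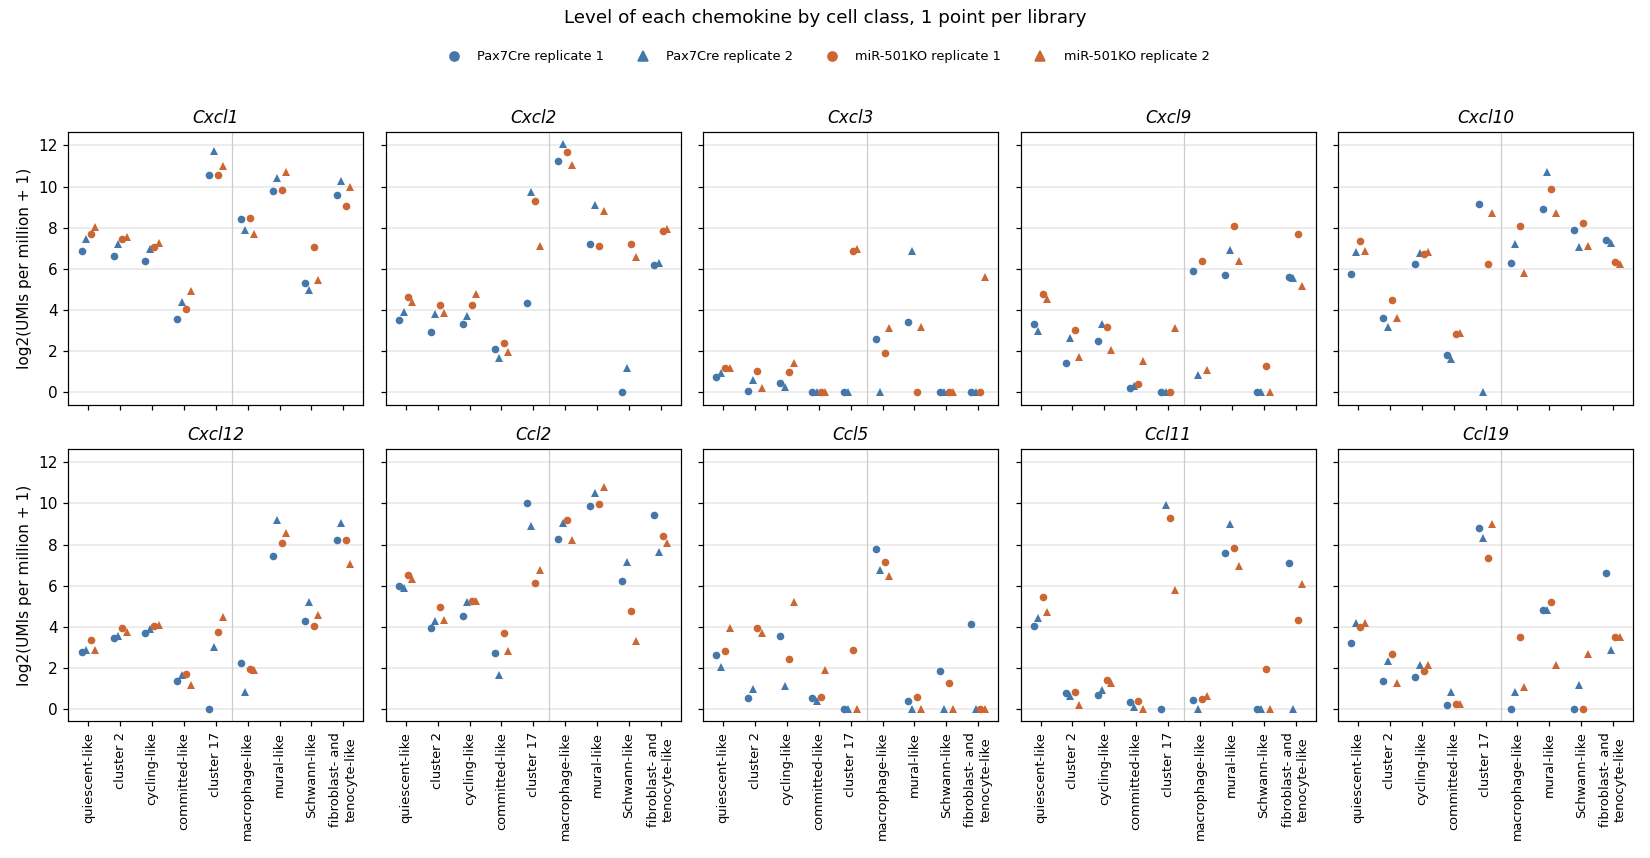
Level of each chemokine as log2 of CPM + 1 (vertical axis) in myogenic groups left of the grey line and niche classes right of it (horizontal axis), with 1 point per library, blue for Pax7Cre and orange for miR-501KO, circles for replicate 1 and triangles for replicate 2. Cxcl2 is highest in macrophage-like cells in every library, Ccl19 in cluster 17, and Cxcl1, Ccl2 and Cxcl10 are at 413 CPM or more in every mural-like library.

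Several members were often met in 1 mural-like cell. After thinning, a mural-like cell had UMIs of 2.89 members on average and 54.8% had at least 3, against a mean of 1.61 members in a macrophage-like cell and 0.742 in a quiescent-like cell. Cycling-like cells had 0.717 and committed-like cells 0.133. The trait was not particular to mural-like cells. The mean was 2.55 in cluster 7, 2.48 in cluster 19, 2.45 in cluster 18 and 2.35 in cluster 17. It was 2.02 in fibroblast-like and tenocyte-like cells. At least 3 members were found in 51.0%, 47.6%, 37.3%, 40.7% and 35.5% of these cells, in the same order. In mural-like cells the mean was 2.75 and 3.36 in Pax7Cre and 2.92 and 3.00 in miR-501KO, and the groups overlapped.

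The genotype comparison asked whether chemokine RNA in progenitors differed when miR-501 was deleted. For all myogenic cells, each library was summed, and the 10 members had levels above the filter of the fit, as did 14893 genes. All 10 log2 fold changes (miR-501KO minus Pax7Cre) lay above 0, from 0.34 to 2.16 with a median of 0.65, against a median of 0.0007 over all genes. For 8 members both miR-501KO libraries lay above both Pax7Cre libraries, an order that 16.7% of all tested genes showed. In quiescent-like cells the median was 0.68, and 8 members showed that order (20.3% of all tested genes). Because 5 of the members had been chosen for this direction in the same contrast, nothing is read from these counts.

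Among the neutrophil attractants, Cxcl1 in all myogenic cells was at 79.4 and 128 CPM in Pax7Cre and 143 and 177 CPM in miR-501KO, a log2 fold change of 0.59 (SE 0.20). Cxcl2 was at 7.996 and 12.5 CPM against 18.7 and 19.6 CPM (0.87, SE 0.18). Cxcl3 was at 0.299 and 0.423 CPM against 1.17 and 2.10 CPM (2.16, SE 0.37). The miR-501KO libraries were the higher ones for each of the 3 genes. For Cxcl3 this was a difference between 32 and 29 UMIs and 74 and 143 UMIs, and cluster 17 held 19 and 64 of the latter, so that Cxcl3 without that cluster was at 0.299 and 0.424 CPM against 0.873 and 1.17 CPM.

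Cxcl10 in all myogenic cells was at 45.5 and 71.0 CPM against 84.6 and 76.5 CPM (0.42, SE 0.17), and Cxcl9 at 4.07 and 6.08 CPM against 10.99 and 6.83 CPM (0.76, SE 0.23). In quiescent-like cells Cxcl9 was at 8.99 and 6.81 CPM in Pax7Cre and 26.8 and 22.3 CPM in miR-501KO, with a log2 fold change of 1.56 (SE 0.18). Here both miR-501KO libraries stood well above either control. In cycling-like cells the same gene was at 4.67 and 9.11 CPM against 7.91 and 3.14 CPM, with a log2 fold change of -0.33 (SE 0.32), and the groups overlapped.

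Cxcl12 differed little, at 8.29 and 9.06 CPM against 11.5 and 11.3 CPM (0.34, SE 0.12). Ccl2 was at 26.2 and 33.3 CPM against 45.8 and 38.2 CPM (0.45, SE 0.13). Ccl5 was at 5.86 and 1.47 CPM against 6.45 and 20.3 CPM (1.80, SE 0.60), and here miR-501KO replicate 2 stood apart while replicate 1 was close to its control. Ccl11, at 3.52 and 7.86 CPM against 13.2 and 6.18 CPM (0.72, SE 0.36), and Ccl19, at 3.03 and 7.18 CPM against 6.24 and 9.14 CPM (0.57, SE 0.34), overlapped between the groups.

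**Figure D2:**
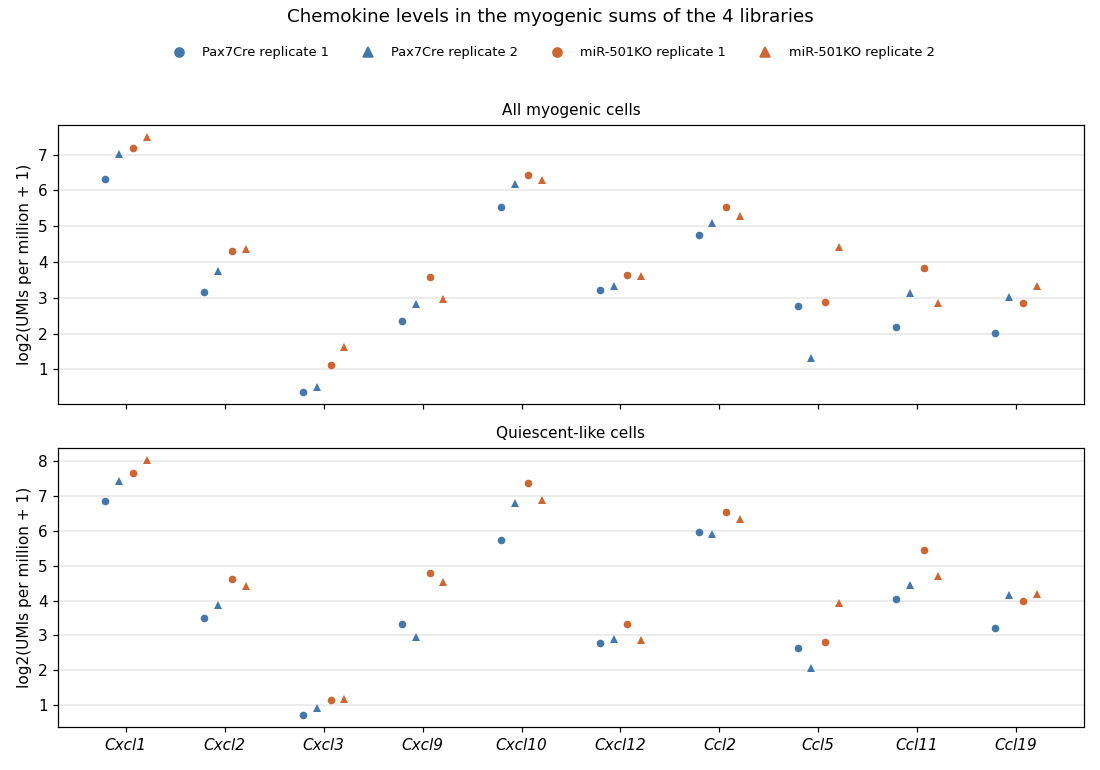
Level of the 10 chemokines as log2 of CPM + 1 (vertical axis) in the sum of all myogenic cells (upper panel) and of quiescent-like cells (lower panel), with 1 point per library, blue for Pax7Cre and orange for miR-501KO, circles for replicate 1 and triangles for replicate 2. The orange points of Cxcl1, Cxcl2, Cxcl3, Cxcl9, Cxcl10, Ccl2 and Ccl5 lie above both blue points in both panels, and those of Ccl19 overlap in both.

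In cycling-like cells all 10 members passed the filter, 9 had a log2 fold change above 0, and the median was 0.40. The 6 with both miR-501KO libraries higher were Cxcl1, Cxcl2, Cxcl3, Cxcl12, Ccl2 and Ccl11 (12.0% of all tested genes showed that order). In committed-like cells 5 members passed, with a median of 0.56. Of these Cxcl10 (2.49 and 2.03 CPM against 6.13 and 6.34 CPM) and Ccl2 (5.57 and 2.19 CPM against 12.0 and 5.97 CPM) were higher in both miR-501KO libraries (17.3% of all tested genes).

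Over all genes these fits gave few calls. With edgeR's quasi-likelihood test and Benjamini-Hochberg adjustment, 0 genes of 14893 passed an adjusted p of 0.05 in all myogenic cells (0.0%), with 379 at an unadjusted p under 0.05 and 7 calls by DESeq2. In quiescent-like cells 4 of 12860 genes passed (0.0311%), a value from which nothing is read about the members. Of the genes tested in the cycling-like and the committed-like sums, 0 of 13374 and 0 of 12163 passed (0.0% and 0.0%), with 319 and 306 genes at an unadjusted p under 0.05 and 2 and 1 calls by DESeq2. With the run as a block, edgeR called 67, 56, 34 and 0 genes in the 4 myogenic sums.

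Markers of macrophage-like and mural-like cells were also measured in the myogenic sums. The 13 macrophage markers summed to 0.0680% and 0.0507% of their macrophage-like level in all myogenic cells of Pax7Cre and to 0.0923% and 0.0628% in miR-501KO. Cxcl2 stood at 0.325%, 0.292%, 0.560% and 0.934% of its macrophage-like level, Ccl5 at 2.64%, 1.38%, 4.63% and 23.4%, and Ccl2 at 8.38%, 6.24%, 7.94% and 12.8%. A set of 5 pericyte genes (Rgs5, Kcnj8, Abcc9, Higd1b and Ndufa4l2, chosen after their values had been seen) stood at 0.0642% to 0.153% of their mural-like level, and Cxcl1 at 8.86% to 15.7% of its own. The whole list of 10 mural markers, which holds genes that myogenic cells also carry, summed to 2355, 2005, 1777 and 2242 CPM in all myogenic cells against 16581 to 21102 CPM in mural-like cells. Cxcl2, Ccl5 and Ccl2 were above the share of the macrophage markers in all 4 libraries. Ccl2 was, however, higher in mural-like cells (923 to 1797 CPM) than in macrophage-like cells (299 to 577 CPM). Cxcl1 was above the share of the 5 chosen pericyte genes, but not in every library above that of the whole mural list. Nothing is therefore read from the 5 genes. The part of mural-like or macrophage-like RNA in the levels of Cxcl1, Cxcl2, Ccl5 and Ccl2 was not tested.

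Within the myogenic sums a few cells held much of some chemokines. In miR-501KO replicate 2, a single myogenic cell held 696 of the 1387 Ccl5 UMIs, and in Pax7Cre replicate 1 another held 205 of 627. The first had 0 UMIs of T and NK markers, 0 of macrophage markers and 151 of myogenic markers, and the second 0, 0 and 173. Without the highest cell of each library the log2 ratio of the group means for Ccl5 went from 1.87 to 1.56 in all myogenic cells and from 1.73 to 0.84 in cycling-like cells. In quiescent-like cells Ccl5 was at 5.26 and 3.15 CPM in Pax7Cre and 6.00 and 14.1 CPM in miR-501KO. There 1 cell held 82 of the 113 UMIs of Pax7Cre replicate 1 and another 70 of the 93 of miR-501KO replicate 1.

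The highest cell held 22.8% to 50.2% of the Ccl5 UMIs of a library, 15.6% to 37.9% for Cxcl3, 11.2% to 29.7% for Cxcl9 and 8.28% to 22.3% for Ccl11. For Cxcl1, Cxcl12 and Ccl2 it held between 1.55% and 5.49%, so these were spread over many cells. Without the highest cells the quiescent-like log2 ratio of Cxcl9 was 1.77, against 1.64 with them, and that of Ccl11 was 1.19 against 0.91. The other ratios in quiescent-like cells stayed above 0 as well.

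**Figure D3:**
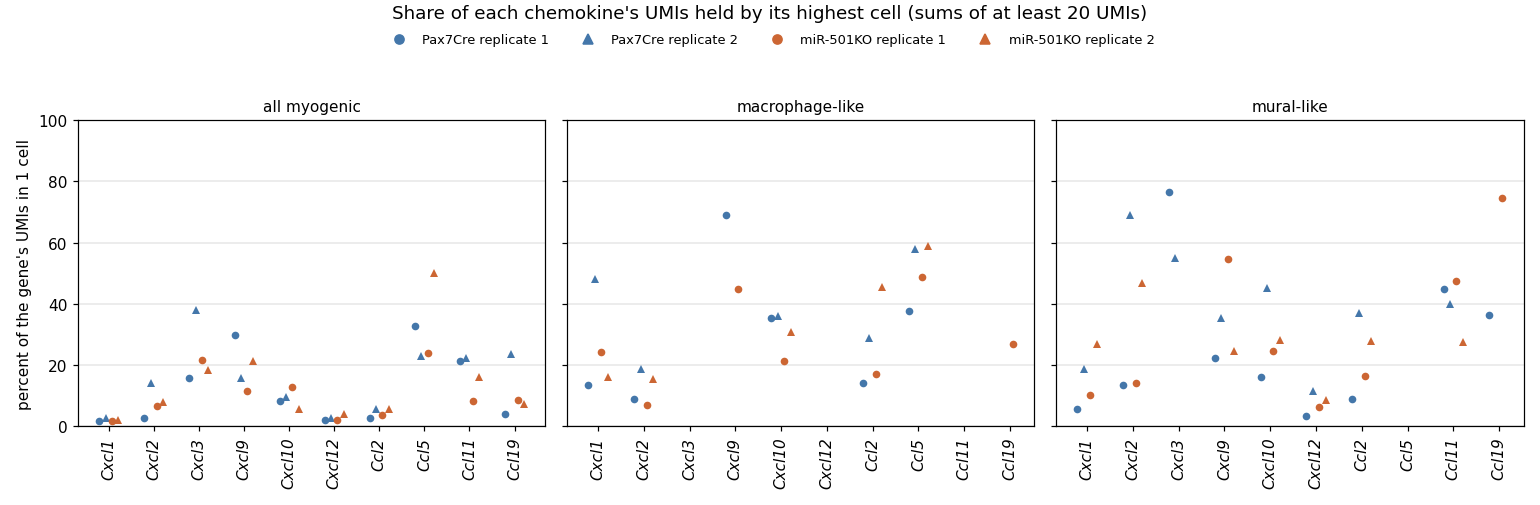
Percent of each chemokine's UMIs held by its highest cell (vertical axis) in all myogenic, macrophage-like and mural-like cells, with 1 point per library that had at least 20 UMIs, blue for Pax7Cre and orange for miR-501KO, circles for replicate 1 and triangles for replicate 2. In myogenic cells Ccl5 reaches 50.2% in miR-501KO replicate 2, while Cxcl1 stays between 1.55% and 2.44%.

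Quiescent-like cells fell into 2 clusters with unlike chemokines. Cluster 1 (1719 cells) was led by Iigp1, Gbp2, Mt1 and Mt2, the first pair interferon-induced GTPases, and cluster 5 (978 cells) by Nppc, Chodl, Edn3, Fos and Egr1. Cxcl10 was at 67.5 and 151 CPM in Pax7Cre and 208 and 221 CPM in miR-501KO in cluster 1, and at 12.7, 25.6, 40.0 and 23.2 CPM in cluster 5. Cxcl9 was at 12.1, 9.22, 35.6 and 44.4 CPM in cluster 1 and at 0.349, 1.60, 1.499 and 2.30 CPM in cluster 5. Cxcl1 had the opposite order, with 86.2, 100.2, 149 and 134 CPM in cluster 1 and 197, 326, 359 and 375 CPM in cluster 5.

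The genotype order of Cxcl9 and Cxcl10 in quiescent-like cells was therefore that of cluster 1, which held 1010 of the 1044 Cxcl9 UMIs. The 30 genes of the interferon pathway list summed to 998 and 1205 CPM in Pax7Cre and 1690 and 1523 CPM in miR-501KO in cluster 1, and to 719, 826, 991 and 866 CPM in cluster 5. Ccl2 did not separate the clusters, with 62.7 to 97.3 CPM in cluster 1 and 49.8 to 86.2 CPM in cluster 5. The clusters were built from other genes of the same cells, so these values describe them and are no test.

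**Figure D4:**
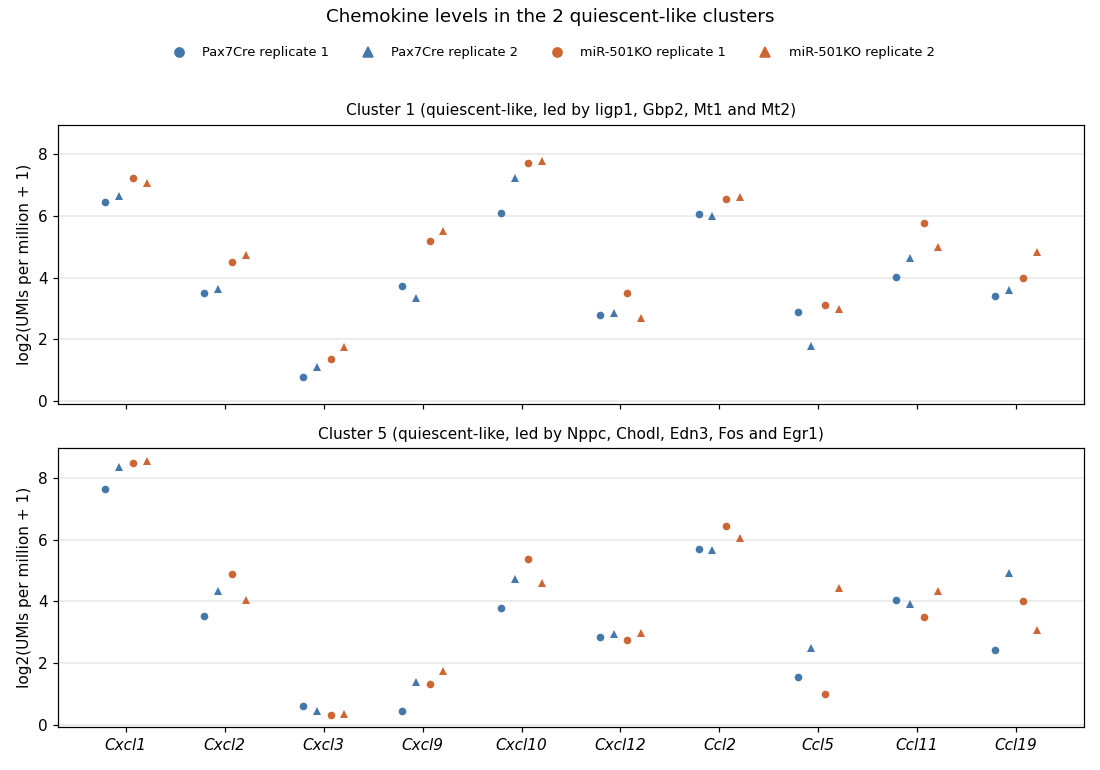
Level of the 10 chemokines as log2 of CPM + 1 (vertical axis) in the quiescent-like clusters 1 (upper panel) and 5 (lower panel), with 1 point per library, blue for Pax7Cre and orange for miR-501KO, circles for replicate 1 and triangles for replicate 2. Cxcl9 and Cxcl10 are higher in cluster 1 in every library, and Cxcl1 is higher in cluster 5.

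The niche classes had not entered the choice of the members, so the genotype comparison was tested there. It used edgeR's quasi-likelihood test with Benjamini-Hochberg adjustment over all genes of the class. In macrophage-like cells 7 members passed the filter and 0 were called, as were 0 of 9841 genes (0.0%), with 89 genes at an unadjusted p under 0.05 and 1 call by DESeq2, not a member. The log2 fold changes of the members lay between -0.59 for Ccl5 and 0.63 for Cxcl3, with 4 above and 3 below 0 and a median of 0.006. Of the 7, none had both miR-501KO libraries above both controls (14.4% of all tested genes did).

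Cxcl2, the leading chemokine of macrophage-like cells, had a log2 fold change of -0.36 (SE 0.33), and the groups overlapped at 2464 and 4260 CPM against 3341 and 2101 CPM. Ccl2 was at 313 and 534 CPM against 577 and 299 CPM (0.006, SE 0.39), and Cxcl10 at 76.5 and 148 CPM against 271 and 53.9 CPM (0.52, SE 0.67). The adjusted p of each of the 7 members was 0.99989 in the edgeR fit. In a fit without Pax7Cre replicate 1, Cxcl9 passed with 5.62 (edgeR adjusted p = 8.65e-09), since the remaining control had 1 UMI. The spread between libraries was wide for these genes, and a p of this size does not show equal levels.

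In mural-like cells 9 members passed the filter and 0 were called by edgeR, where 7 of 9335 genes passed (0.075%), 328 had an unadjusted p under 0.05 and DESeq2 made 4 calls, none a member. The median log2 fold change of the members was -0.24, with 3 above and 6 below 0, and none had both miR-501KO libraries above both controls (20.1% of all tested genes did). Cxcl1, at 896 and 1354 CPM against 915 and 1671 CPM (0.16, SE 0.28), and Ccl2, at 923 and 1461 CPM against 1013 and 1797 CPM (0.19, SE 0.28), differed more between runs than between genotypes. Cxcl10 was at 474 and 1668 CPM against 933 and 413 CPM (-0.69, SE 0.41), Cxcl12 had -0.24 (SE 0.37) and Ccl11 had -0.99 (SE 0.35) with 193 and 507 CPM against 224 and 121 CPM. Leaving out Pax7Cre replicate 1 brought Ccl11 to -1.56 (edgeR adjusted p = 0.000419) and Cxcl10 to -1.33 (adjusted p = 0.00721), and leaving out miR-501KO replicate 1 brought Ccl11 to -1.51 (adjusted p = 0.0247) and Cxcl10 to -1.38 (adjusted p = 0.0365).

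Cxcl3 in mural-like cells was the 1 member lower in both miR-501KO libraries, with 9.74 and 114 CPM against 0 and 8.01 CPM. The fitted value on the log2 scale was -4.14 (SE 1.08), with an edgeR adjusted p of 0.387, and -4.16 with an adjusted p of 1.72e-09 when the run was a block. With 0 UMIs in miR-501KO replicate 1, Cxcl3 would not have entered the fit on the miR-501KO libraries alone. Its UMIs also sat in few cells, as given below, so these p-values are no support. Of the alternatives for the Cxcl3 log2 fold change in mural-like cells, those without Pax7Cre replicate 1 (-5.43, adjusted p = 1.22e-15), without miR-501KO replicate 1 (-2.47, adjusted p = 0.00550), without miR-501KO replicate 2 (-9.37, adjusted p = 2.68e-13) and with no filter on low counts (-4.10, adjusted p = 1.23e-11) passed. Without Pax7Cre replicate 2 (-1.90, adjusted p = 0.99986) and in DESeq2 (-3.98, adjusted p = 0.99999) it did not. The counts were small and sat in few cells. Pax7Cre had 30 UMIs, 23 of them in 1 cell, and 51 UMIs, 28 of them in 1 cell, and miR-501KO had 0 and 7, the latter all in 1 cell. The ratio of the depth-scaled counts was 0.106 (95% interval 0.0413 to 0.229, counting error only).

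Cxcl9 differed by 1.21 on the log2 scale in mural-like cells (SE 0.42, adjusted p = 0.99926 in edgeR), at 51.0 and 121 CPM against 274 and 83.5 CPM, and 299 of the 548 UMIs of miR-501KO replicate 1 lay in 1 cell. Without Pax7Cre replicate 2 it was 1.75 (adjusted p = 3.60e-05), without miR-501KO replicate 2 it was 1.76 (adjusted p = 5.42e-05), and with no filter on low counts 1.22 (adjusted p = 0.00326). The value for Cxcl2 was -0.21 with all libraries, -1.31 without miR-501KO replicate 2 (adjusted p = 0.0407) and 0.88 without Pax7Cre replicate 2 (adjusted p = 0.281). Ccl19 was at 27.0 and 26.9 CPM against 35.5 and 3.43 CPM (-0.33, SE 0.50), and at -3.00 without miR-501KO replicate 1 (adjusted p = 0.0198).

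In Schwann-like cells 5 members passed the filter and 1, Cxcl2, was called higher in miR-501KO. Cxcl2 passed the filter only through the miR-501KO libraries, where it was high, so a member admitted this way had to differ and its p is no support. It was the 1 gene of 8227 genes called by edgeR (0.0122%), where 227 had an unadjusted p under 0.05 and DESeq2 called 3 genes, Cxcl2 and Ccl2 among them. The median log2 fold change of the 5 was 0.21, and Cxcl1 and Cxcl2 were the 2 with both miR-501KO libraries above both controls (18.8% of all tested genes). The comparison rested on 23 and 58 cells in Pax7Cre and 39 and 75 cells in miR-501KO.

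Cxcl2 in Schwann-like cells had 0 and 1 UMI in Pax7Cre and 106 and 104 UMIs in miR-501KO, or 0 and 1.23 CPM against 148 and 94.2 CPM. Both miR-501KO libraries were high and both controls near 0. The fitted log2 fold change was 6.87 (SE 0.62, edgeR adjusted p = 0.00202), a value that depends on the prior count of the fit, and the ratio of depth-scaled counts was 138 (95% interval 24.6 to 5491, counting error only). For the Cxcl2 log2 fold change in Schwann-like cells DESeq2 gave 7.08 (adjusted p = 0.00594), and the fit with the run as a block gave 6.77 (adjusted p = 1.04e-27).

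In miR-501KO replicate 1, 94 of the 106 UMIs lay in 1 cell and the rest in 6 others, and in replicate 2 the 104 UMIs lay in 10 cells, at most 24 in each. The cells with Cxcl2 were deep, with median depths of 25210 and 31553 UMIs, against 14123 and 9843 UMIs in the cells without Cxcl2. They held 0 to 20 UMIs of the 13 macrophage markers, and 9 to 141 UMIs of the 9 Schwann markers. The summed macrophage markers of the class stood at 0.510% and 1.04% of their macrophage-like level in Pax7Cre and at 0.248% and 2.81% in miR-501KO, and Cxcl2 at 0%, 0.0289%, 4.43% and 4.48% of its own.

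The call did not hold in every setting. Without Pax7Cre replicate 2 the fit gave 9.44 (edgeR adjusted p = 0.162), and without miR-501KO replicate 1 it was 6.54 (adjusted p = 0.0526). Without the 5% of cells with the highest doublet scores it was 6.35 (adjusted p = 0.99998). The UMIs of miR-501KO replicate 2 went from 104 to 35 there and those of replicate 1 stayed at 106.

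Ccl2 in Schwann-like cells had the opposite order, with 75.1 and 140 CPM in Pax7Cre and 26.5 and 9.06 CPM in miR-501KO. The difference was -2.80 on the log2 scale (SE 0.44, adjusted p = 0.101 in edgeR), and it passed with the run as a block (-2.81, adjusted p = 1.34e-14) in DESeq2 (-2.72, adjusted p = 0.0140), without Pax7Cre replicate 1 (-3.11, adjusted p = 0.00156) and with no filter on low counts (-2.80, adjusted p = 1.93e-12). Without the 5% of cells with the highest doublet scores the Ccl2 log2 fold change in Schwann-like cells was -0.88 (edgeR adjusted p = 0.99998), with 26 and 0 UMIs in Pax7Cre and 19 and 7 in miR-501KO. Of all Ccl2 UMIs, 26 of 29 and 113 of 114 UMIs of the Pax7Cre libraries lay in 1 cell each. Without the highest cell of each library the log2 ratio of the group means turned from -2.60 to 0.44. Cxcl1 was at 38.8 and 30.7 CPM against 134 and 42.6 CPM (1.28, SE 0.49). Cxcl10 was at 236 and 132 CPM against 303 and 135 CPM (0.21, SE 0.38), and Cxcl12 had -0.61 (SE 0.43). Each of these genes had an edgeR adjusted p of 0.99927. Without the highest cells the log2 ratio of the group means went from 1.34 to 0.68 for Cxcl1. It went from 0.25 to -0.017 for Cxcl10 and from -0.50 to -0.65 for Cxcl12.

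**Figure D5:**
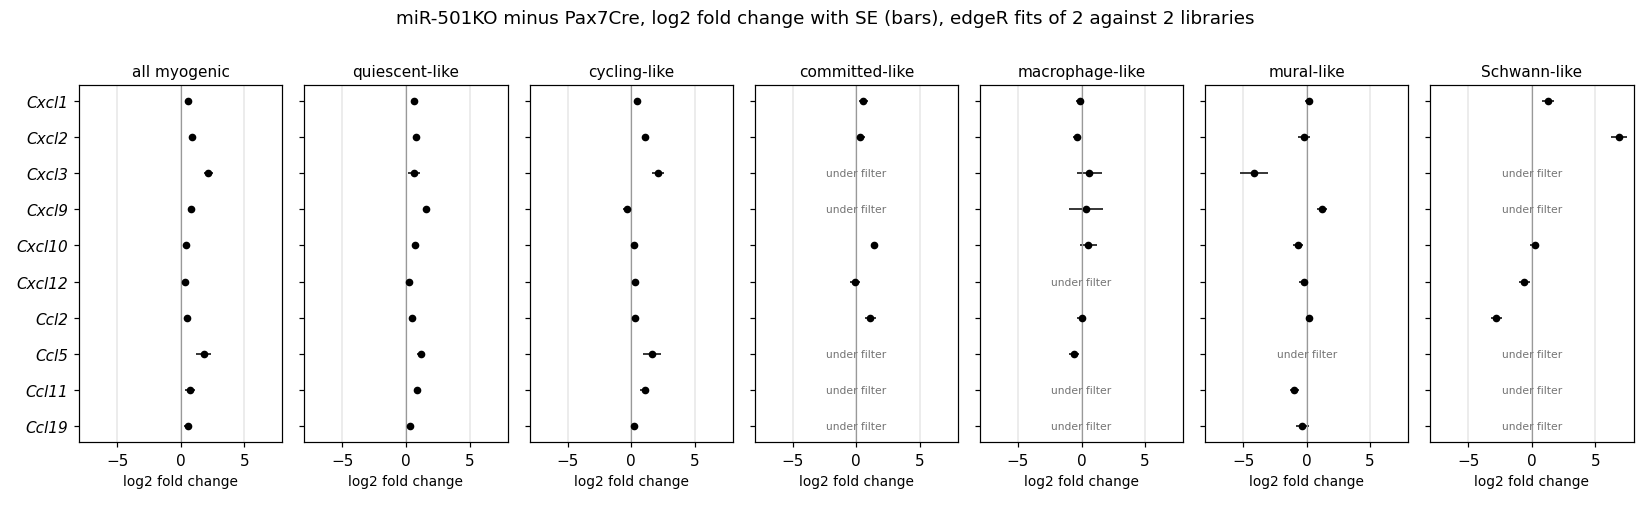
Log2 fold change of each chemokine, miR-501KO minus Pax7Cre (horizontal axis), in 7 fits of 2 against 2 libraries, where points are estimates of edgeR and bars are standard errors, and members with too few counts are marked as under the filter. Points in the myogenic fits lie mostly right of 0, a direction for which 5 of the 10 members were chosen, those in macrophage-like and mural-like cells lie on both sides, and Cxcl2 in Schwann-like cells lies at 6.87.

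Among these cells, the receptors of the members were mostly RNA of macrophage-like cells. The cells had been sorted as negative for CD45, and no cluster was named for neutrophils, T cells or dendritic cells. Cxcr4 and Ackr3 were exceptions. Cxcr4, the receptor of Cxcl12, was at 242 to 398 CPM in macrophage-like cells, 62.9 to 85.9 CPM in quiescent-like cells and 33.9 to 64.6 CPM in committed-like cells. The gene Ackr3, a scavenging receptor of Cxcl12, was at 44.1 to 59.6 CPM in committed-like cells against 19.5 to 22.9 CPM in quiescent-like cells, without overlap. Ccr2 was at 103 to 248 CPM, Ccr1 at 6.84 to 45.2 CPM, Ccr7 at 1.10 to 29.6 CPM and Cxcr3 at 5.39 to 6.08 CPM in macrophage-like cells. In all myogenic cells none of these 4 passed 0.131 CPM. Ccr3 had 0 UMIs in myogenic cells, and Cxcr2, the receptor of Cxcl1, Cxcl2 and Cxcl3, was at 0.352 to 0.523 CPM there.

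None of the 12 receptors was called between the genotypes by edgeR in any of the 7 sums, and DESeq2 and the fit with the run as a block called none. In all myogenic cells 1 of the 5 that passed the filter had an unadjusted p under 0.05, Cxcr4, at 46.9 and 64.6 CPM in Pax7Cre and 44.3 and 40.6 CPM in miR-501KO. Its log2 fold change was -0.44 (SE 0.14), both miR-501KO libraries lay below both controls, and the controls differed more from each other than the group means did.

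Of the list of 30 interferon pathway genes, 29 were tested in quiescent-like cells, where 26 log2 fold changes lay above 0 and 3 below, with a median of 0.42 against 0.008 over all genes. The list was chosen with earlier results of these data known. Called higher were 2, both interferon-induced GTPases, while over all genes 0 were called at a Leiden resolution of 1.0 and 1 without the highest doublet scores. Gbp5 was at 5.22 and 6.41 CPM in Pax7Cre and 17.6 and 11.6 CPM in miR-501KO (log2 fold change 1.26, SE 0.20), and Iigp1 at 76.4 and 88.9 CPM against 191 and 142 CPM (0.94, SE 0.15). In all myogenic cells 30 were tested and 0 called by edgeR, with 12 at an unadjusted p under 0.05, all of them higher, 1 call by DESeq2 (Iigp1) and 3 with the run as a block (Gbp3, Gbp5 and Iigp1). In macrophage-like cells the median of the list was 0.01 and 0 of 29 had an unadjusted p under 0.05, with 0 calls by edgeR and by DESeq2.

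Of 24 genes of NF-kappaB signalling and inflammation, edgeR and DESeq2 called 0 in each of the 7 sums, with at most 2 per sum at an unadjusted p under 0.05, and the median log2 fold change lay between -0.10 and 0.15. Of the 26 other chemokines edgeR and DESeq2 called 0 as well, with at most 3 per sum at an unadjusted p under 0.05. With the run as a block, Cxcl5, another neutrophil attractant, was called in all myogenic and in cycling-like cells, and Ccl22 in macrophage-like cells. By level, Ccl8 (1219 CPM over the 4 libraries), Pf4 (1026 CPM) and Ccl4 (817 CPM) were the highest of the others in macrophage-like cells, and Cxcl5 reached 92.3 CPM in cluster 17 against 2.34 CPM in all myogenic cells.

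The genes most like each member in pattern were found by Pearson's r of log2(CPM + 1) over 56 sums, each a cluster in 1 library with at least 20 cells, from 18 clusters. The sums share libraries and differ in depth, so r is a description. Cxcl12 was most like Loxl2, Igfbp7 and Gnb4 (r of 0.90, 0.89 and 0.88), Ccl11 like Vtn, Steap4 and Serping1 (0.89, 0.87 and 0.87), and Ccl2 like Ccl7, Lgals9 and Phf11d (0.88, 0.87 and 0.87). Cxcl2 was most like Sp100, Ifi207 and Sp110 (0.86 each), Cxcl1 like Septin6, Myd88 and Pnp (0.84, 0.83 and 0.83), and Cxcl10 like H2-Q4, Zc3hav1 and Smim3 (0.83, 0.82 and 0.81). The sparse members had lower values, with Ccl19 most like Kcnt2 (0.83), Gstm1 (0.78) and Mt1 (0.75), Ccl5 like Epsti1, Ptpn22 and Stap1 (0.74, 0.72 and 0.71), Cxcl9 like Adcy4, Il1r2 and Ifi205 (0.73 each), and Cxcl3 like Kcnt2, Npas2 and Ms4a4d (0.72, 0.67 and 0.65).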

How the data were processed

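Single-cell RNA libraries (10x Genomics 3′) were made from 4 pools of sorted cells. The authors deposited a matrix of UMI counts per gene and cell for each library. The submitters' processing notes name Cell Ranger, Seurat and GRCm39, and per the file headers the matrices came from cellranger 6.0.2. No normalized values were used, and 0 columns of other samples were present.

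A barcode was kept as a cell from 5000 UMIs and 1000 genes upwards. Cells were clustered with scanpy 1.11.5 (1965 variable genes, 30 principal components, 15 neighbours, Leiden resolution 0.5), leaving out 59 chemokine and receptor genes. Classes were named from marker lists. Scrublet called 20 cells (0.191%) as doublets, so it had not worked, and no cell was removed. An alternative left out the 5% with the highest scores.

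UMIs were summed per library and class, where each library had at least 20 cells. Genotypes were compared with edgeR 4.0.16 (quasi-likelihood, TMM, filterByExpr, Benjamini-Hochberg over all genes), with DESeq2 1.42.0 as an alternative, in R 4.3.3. The fit was first tested on simulated data. Shares of cells were taken after thinning each cell to 5000 UMIs. Counting intervals are at 95%, and a count of 0 allows 3 counts.

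The members and all gene lists were chosen with earlier results of these data known. Named were all members, the 3 genes most like each, the member receptors and every list gene called. Genes named for their level or as leaders of a cluster were chosen after their values were seen.

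The run numbers in the labels pair the libraries. The run differences of the genotypes correlated across genes at -0.18 to 0.09 over the 7 sums, and replicates were further apart than counting error allows (chi-square over its degrees of freedom 2.91 to 68.2).

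A few genes and 1 motif of the lists used are not reported here.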

Additional observations from a re-analysis of the deposited data

Results flagged for a closer look

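Opposite orders of the libraries in progenitors and niche cells were met for 2 members. In each case both miR-501KO libraries lay above both controls in 1 class and below both in the other. The difference between the classes was not tested. How many of all genes show such opposite orders was not counted, so the 2 members have no background to be set against. The higher order alone was met in 12.0% to 20.3% of all tested genes, depending on the sum. The log2 fold change of Cxcl3 was 4.77 higher in quiescent-like and 6.23 higher in cycling-like than in mural-like cells, where 7 UMIs in miR-501KO stood against 81 in Pax7Cre. That of Ccl2 was 3.24 higher in quiescent-like, 3.13 higher in cycling-like and 3.91 higher in committed-like than in Schwann-like cells, where 1 cell held 26 of 29 and another 113 of 114 UMIs of the Pax7Cre libraries. Without the highest cell of each library the log2 ratio of Ccl2 in Schwann-like cells turned from -2.60 to 0.44, and without the highest doublet scores Pax7Cre replicate 2 had 0 Ccl2 UMIs there. Cxcl3 had been chosen for its direction in myogenic cells. In quiescent-like cells Cxcl3 had 14 and 16 UMIs in Pax7Cre and 19 and 18 in miR-501KO (0.63, SE 0.46). In each library 1 cell held 35.7% to 68.8% of them. In cycling-like cells Cxcl3 had 17 and 5 UMIs against 22 and 47, with 24 of the 47 in 1 cell.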

How the results depend on the processing

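Over the 3 niche classes, 239 of 293 member fold changes kept their direction and side of the threshold, 21 passed it, 3 no longer passed and 30 changed sign. In myogenic sums 456 of 499 moved by less than the spread and 11 changed sign, 4 of them without miR-501KO replicate 2. Cluster 7 was counted as myogenic in a setting chosen after seeing the data. There 3 of the 10 member values in all myogenic cells moved by at least the spread, 0 changed sign and 0 genes were called. With the replicate block, calls were 67 in all myogenic, 56 in quiescent-like, 34 in cycling-like, 4 in macrophage-like, 31 in mural-like and 19 in Schwann-like cells, and the block changed no call of a tested member beyond Cxcl3 and Ccl2 given above. Crossing the runs, chosen after seeing the data, gave 25 in quiescent-like, 4 in cycling-like, 1 in macrophage-like and 2 in Schwann-like cells. With no filter on low counts calls were 98 in quiescent-like, 57 in cycling-like, 2 in committed-like, 24 in macrophage-like, 54 in mural-like and 23 in Schwann-like cells. DESeq2 gave 7, 7, 2, 1, 1, 4 and 3 calls in the 7 sums. Without the highest Scrublet scores calls were 1 in quiescent-like, 0 in mural-like and 0 in Schwann-like cells. In quiescent-like cells they were 0 at Leiden resolution 1.0 and 19 with chemokines among the variable genes, and in mural-like cells 4 without cells over 10% mitochondrial UMIs. The cause was not tested.

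Leaving out 1 library at a time, calls ranged from 0 to 62 in all myogenic, 16 to 213 in quiescent-like, 3 to 44 in cycling-like, 0 to 69 in committed-like, 4 to 35 in macrophage-like, 25 to 63 in mural-like and 0 to 10 in Schwann-like cells, where the lone library of a group is assumed to vary like the others. In macrophage-like cells the log2 fold changes that turned sign ranged from -0.56 to 0.26 for Cxcl1, -0.77 to 0.13 for Cxcl2, -0.14 to 6.25 for Cxcl3, -4.89 to 5.62 for Cxcl9, -1.13 to 1.26 for Cxcl10, -0.59 to 0.48 for Ccl2 and -1.01 to 0.021 for Ccl5. In mural-like cells they ranged from -0.36 to 0.54 for Cxcl1, -1.31 to 0.88 for Cxcl2, -1.38 to 0.41 for Cxcl10, -0.92 to 0.79 for Cxcl12, -0.30 to 0.56 for Ccl2 and -3.00 to 0.30 for Ccl19, and in Schwann-like cells from -0.46 to 0.68 for Cxcl10 and -0.96 to 0.029 for Cxcl12. Without the highest Scrublet scores Cxcl1 and Ccl2 in mural-like cells turned to -0.14 and -0.14, and Cxcl9 and Ccl2 in macrophage-like cells to -0.51 and -0.11. Ccl2 in macrophage-like cells was at -0.024 with the replicate block and -0.028 with crossed runs, and Cxcl9 at -0.0044.

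Shares without thinning moved in 50 of 60 cases. Fibroblast-like and tenocyte-like cells were not fitted, since 3 libraries had fewer than 20 cells, and 59 of their 107 cells came from miR-501KO replicate 2, at a median depth of 9066 UMIs against 39317 to 45972 in the others. No cluster of the fitted niche classes drew over 90% of its cells from 1 library. With 2 pools a group, wide spreads and chemokine UMIs held by single cells limit what the tests can show.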

Other observations

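The endothelial and interferon-related values around the members are given without a test. Cluster 19, 21 cells with endothelial markers, had Cxcl9 at 8.25 and 232 CPM in Pax7Cre and 259 and 39.4 CPM in miR-501KO, and Cxcl10 at 0, 156, 362 and 106 CPM. Cluster 7, found in miR-501KO replicate 1 alone, had Cxcl2 at 173 CPM and Ccl2 at 179 CPM. In mural-like cells 28 of the 30 interferon pathway genes were tested, 23 had a log2 fold change above 0 and 5 below, and the median was 0.43. Of these 0 were called by edgeR and by DESeq2, 7 had an unadjusted p under 0.05, and Ifit1 and Ifit3 were called with the run as a block.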
